A study of Mus musculus with 6 samples.

Results

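The genes described here encode the central routes of carbon metabolism, from the uptake of glucose through glycolysis to lactate, the oxidation of pyruvate in the tricarboxylic acid (TCA) cycle, and the pentose phosphate pathway. They are 37 genes chosen by symbol, and all 37 were found among the 48397 genes of the count table. Of the 37 genes, 36 had enough reads to be tested for a difference between genotypes, and Aldoc, an aldolase isoform gene, did not. The genes were sorted by their place in the pathways into 7 arms: transporters, upper glycolysis, lower glycolysis, lactate dehydrogenase, pyruvate dehydrogenase, the TCA cycle with its associated dehydrogenases, and the pentose phosphate pathway.

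RNA-Seq was performed on stage 0 invariant natural killer T (iNKT) cells, the earliest thymic precursors of this lineage, to ask how weaker T cell receptor (TCR) signaling alters their gene expression. Of the 6 libraries, 3 came from wild-type BALB/c mice and 3 from SKG mice, which are on the BALB/c strain and carry a hypomorphic Zap70, the kinase that relays the TCR signal (the titles of these samples spell the name SGK). All mice were 8 to 10 weeks old, and every library was made from about 1000 cells sorted from the pooled thymi of 3 mice as binding the PBS57-CD1d tetramer, positive for CD24 and CD69, negative for CD44 and CD8, and low or negative for CD4. A replicate is therefore a pool of mice, and the mutation is in the germline, so it is not restricted to iNKT cells. Libraries were made from amplified polyA RNA, and the labels and the methods of the study name different amplification kits. The sequenced RNA is a bulk sample, in which fewer cells of a type and less RNA per cell cannot be told apart.

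T cells take up glucose through facilitative transporters and break it down to pyruvate by the enzymes of glycolysis. Pyruvate is either reduced to lactate by lactate dehydrogenase and exported by monocarboxylate transporters, or oxidized to acetyl-CoA by pyruvate dehydrogenase and fed into the TCA cycle. The pentose phosphate pathway branches off at glucose 6-phosphate and provides NADPH and ribose for nucleotides. In peripheral T cells, TCR stimulation is known to raise glucose uptake and glycolysis, and quiescent thymocytes and T cells depend more on oxidation in mitochondria.

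Between 37176544 and 43115544 reads per library were counted on genes. In BALB/c 11415 to 14339 genes had 10 reads or more, and in SKG 10835 to 14791 genes, with BALB/c replicate 3 and SKG replicate 1 above the other libraries. All 8 markers of T cells and stage 0 iNKT cells were detected, and their summed level, as counts scaled to library size (CPM), was 5661 to 6553 CPM in BALB/c and 4709 to 5434 CPM in SKG, without overlap. Of these markers, Egr2, a transcription factor gene induced by TCR signals, averaged 1351 CPM in BALB/c and 777 CPM in SKG (unadjusted p = 0.0243, FDR = 0.834, edgeR). Cd69, an activation marker used in the sort, averaged 353 and 193 CPM (unadjusted p = 0.0064, FDR = 0.686, edgeR). Both genes had every BALB/c library above every SKG library. The other 6 markers each overlapped between genotypes and had an unadjusted p between 0.108 and 0.581 (edgeR). Among them Cd24a, whose product was also used in the sort, averaged 25.1 CPM in BALB/c and 70.4 CPM in SKG, and Cd3e, a subunit gene of the TCR complex, 928 and 987 CPM. The summed levels of other cell types overlapped between genotypes. They were 46.1 to 316 and 38.0 to 155 CPM for double-positive thymocytes, 6.87 to 94.9 and 4.59 to 45.0 CPM for B cells, 99.0 to 228 and 75.1 to 266 CPM for myeloid cells, and 28.1 to 40.6 and 10.0 to 86.9 CPM for thymic epithelial cells in BALB/c and SKG. Erythroid markers summed to 0.0270 to 69.7 CPM in BALB/c and 0.0515 to 0.691 CPM in SKG, and Alas2, a heme synthesis gene of red cells, and the epithelial markers Krt5 and Psmb11 had 0 reads in all 6 libraries. The sums rested on few genes. Among myeloid markers Cst3 was at 69.1 to 163 CPM and Lyz2 at 0.124 to 107 CPM, and Itgam, Csf1r and Adgre1 at 0.199 CPM or less. Epcam was at 10.0 to 86.9 CPM, and the other epithelial markers reached at most 1.085 CPM. BALB/c replicate 1 was the highest library for double-positive, B cell and erythroid markers. Genes of cycling cells summed to 498 to 592 CPM in BALB/c and 427 to 636 CPM in SKG, mostly from Mcm5 and Pcna. Mcm5 averaged 282 CPM in BALB/c and 318 CPM in SKG, with overlap. Pcna averaged 168 and 114 CPM, with every BALB/c library above every SKG library (unadjusted p = 0.146, FDR = 0.972, edgeR). The other markers of cycling cells overlapped between genotypes. The part of these marker levels in the differences given here was not tested.

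With edgeR, no gene of central carbon metabolism was called different between BALB/c and SKG stage 0 cells, and DESeq2 called 1. With thresholds of 0.1 for the false discovery rate (FDR) and 1.5 for the fold change, edgeR called 0 of the 36 tested genes, and it called 0 of all 12312 genes tested (0%). At an unadjusted p under 0.05, 4 of the 36 genes stood out, all with more RNA in BALB/c: the glucose transporter gene Slc2a3, the triose phosphate isomerase gene Tpi1, the phosphoglycerate mutase gene Pgam1 and the fumarase gene Fh1. Among all genes tested, 2.38% reached that p with more RNA in BALB/c and 3.07% with more in SKG, where the carbon metabolism genes numbered 0. With DESeq2, Tpi1 was the 1 gene called, at an FDR of 0.0347 without and 0.0432 with shrinkage of fold changes, when 2.58% and 1.67% of the genes with an adjusted p were called, and limma-voom called 0. An unadjusted p under 0.05 was reached by 5 of the 36 genes with DESeq2 and by 6 with limma-voom, all with more RNA in BALB/c. The share of all genes that did so with more RNA in BALB/c was 2.81% with DESeq2 without shrinkage and 3.56% with limma-voom.

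In 5 genes, every BALB/c library lay above every SKG library on the CPM scale. These were Pfkm, Tpi1, Pgam1, Eno3 and Ldha, all of glycolysis or lactate formation. The reverse order, every SKG library above every BALB/c library, was seen in 0 of the 36. Over all genes tested, 7.12% were separated in this way with BALB/c higher and 6.77% with SKG higher. With 3 libraries against 3, an exact permutation test cannot give a two-sided p below 0.1, so these counts are a description.

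Across the 36 genes the log2 fold change of SKG over BALB/c was below 0 in 24 and above 0 in 12, and 51% of all genes tested had a value below 0. Its median was -0.13 for the carbon metabolism genes and -0.02 for all genes tested. The genes together received 1.309%, 1.333% and 1.228% of the reads in BALB/c replicates 1 to 3 and 1.143%, 1.065% and 1.201% in SKG replicates 1 to 3. Thus each BALB/c library spent a larger share of its reads on them than any SKG library. After TMM scaling their sums were 13168, 13495 and 11727 CPM in BALB/c and 11422, 10833 and 12342 CPM in SKG, and SKG replicate 3 then exceeded BALB/c replicate 3.

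**Figure D1:**
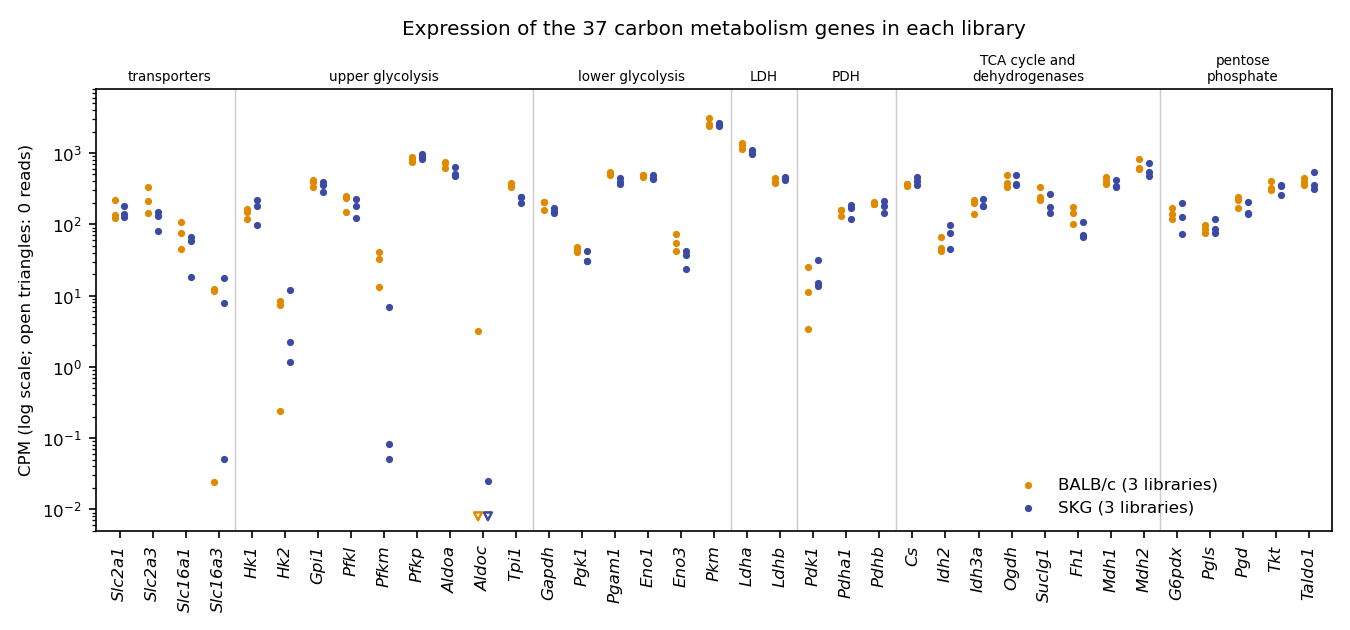
Level of each of the 37 genes in the 6 libraries, in CPM after TMM scaling on a log axis, with BALB/c libraries in orange and SKG libraries in blue and the genes grouped by arm of the pathways. Most genes lie above 100 CPM with the points of both genotypes intermixed, whereas Slc16a3, Hk2, Pfkm and Aldoc scatter widely between libraries of 1 genotype, and open triangles mark libraries with 0 reads.

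**Figure D2:**
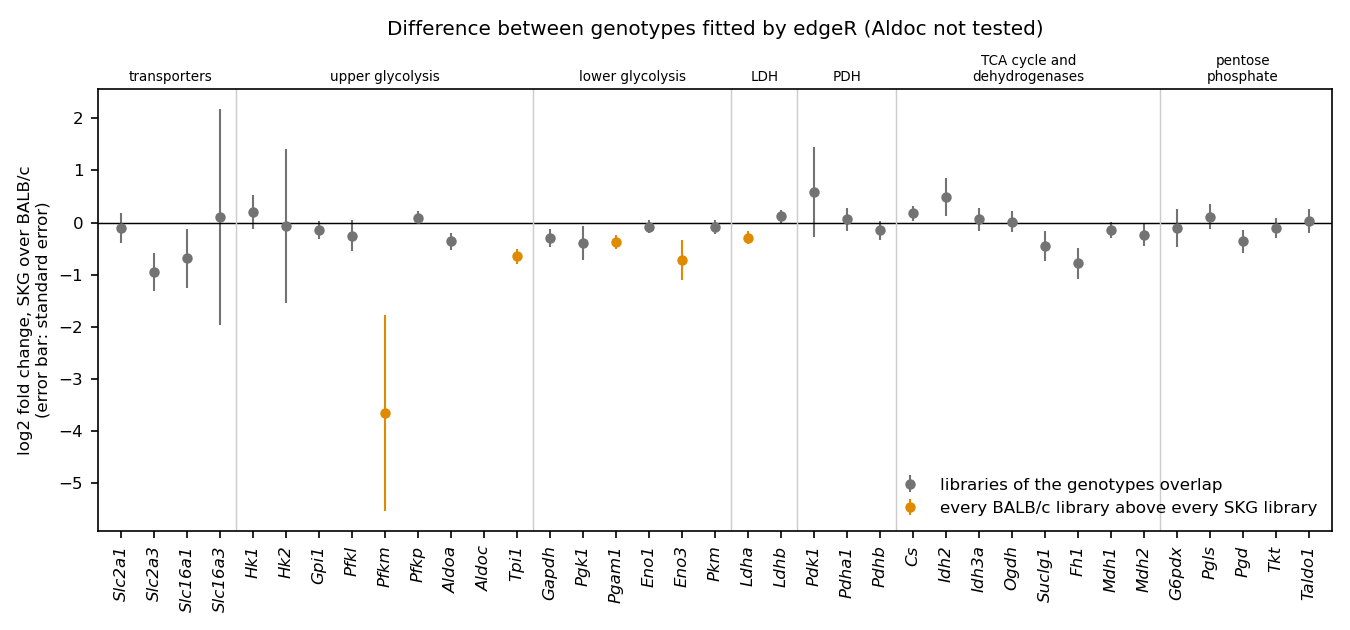
Log2 fold change of SKG over BALB/c for the 36 tested genes as fitted by edgeR, with its standard error as the bar. The 5 genes whose libraries did not overlap are in orange and all lie below 0, and Pfkm at -3.65 also has a wide error bar of 1.87.

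Lower glycolysis, the steps from glyceraldehyde 3-phosphate to pyruvate, was the arm in which all tested genes leaned the same way. All 6 genes had a log2 fold change below 0, from -0.72 to -0.08 with a median of -0.33, and this held under each scaling of the counts, although Pkm was at 0.016 without BALB/c replicate 2. Pgam1 was at 515, 535 and 487 CPM in BALB/c replicates 1 to 3 and at 442, 386 and 366 CPM in SKG replicates 1 to 3. Every BALB/c library exceeded every SKG library, with means of 513 ± 24.0 and 398 ± 39.2 CPM (SD, n = 3 libraries each). The log2 fold change was -0.37 with a standard error of 0.13 (unadjusted p = 0.0291, FDR = 0.847, edgeR). The unadjusted p was 0.0234 without SKG replicate 1 and 0.0516 to 0.0961 without any other library (edgeR). Pgam1 lies at chr19:41911923-41918660 of GRCm38 on the plus strand, and 41.5% of the 50-base stretches of its main transcript also occur in other genes, in full in the pseudogene Pgam1-ps2, so its count is uncertain to that extent.

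Eno3 encodes the enolase isoform best known from muscle. Its levels were 72.4, 41.9 and 54.2 CPM in BALB/c and 37.5, 41.7 and 23.4 CPM in SKG. The genotypes did not overlap, but the lowest BALB/c and the highest SKG library lay next to each other. Its log2 fold change of -0.72 had a standard error of 0.38 (unadjusted p = 0.107, FDR = 0.959, edgeR). The main enolase gene Eno1 was at 482 ± 21.3 CPM in BALB/c and 457 ± 32.9 CPM in SKG (SD, n = 3 libraries each), with overlap. Eno1 shares 72.2% of its 50-base stretches with other genes, mostly with Eno1b, and Eno3 shares 0%.

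Pkm, the pyruvate kinase gene that forms pyruvate at the end of glycolysis, had the highest level of all 37 genes. It was at 2415, 3076 and 2561 CPM in BALB/c and at 2505, 2421 and 2670 CPM in SKG. The SKG range lay within that of BALB/c, and the log2 fold change was -0.08 with a standard error of 0.13. Pkm shares 34.4% of its 50-base stretches with 8 other genes. Gapdh and Pgk1, the genes of the glyceraldehyde 3-phosphate dehydrogenase and phosphoglycerate kinase steps, had log2 fold changes of -0.29 and -0.39 with standard errors of 0.18 and 0.33. The counts of both are uncertain, since 82.5% of the 50-base stretches of Gapdh occur in 222 other genes and 68.0% of those of Pgk1 in 5 other genes.

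Upper glycolysis, from hexokinase to the triose phosphates, held the gene with the lowest p of the set. Tpi1, whose product interconverts the triose phosphates, was at 380, 344 and 332 CPM in BALB/c and at 238, 198 and 240 CPM in SKG. All BALB/c libraries exceeded all SKG libraries by more than the range within either genotype, with means of 352 ± 25.1 and 225 ± 24.0 CPM (SD, n = 3 libraries each). Its level was 1.56-fold higher in BALB/c, a log2 fold change of -0.65 with a standard error of 0.15 (unadjusted p = 0.00375, FDR = 0.619, edgeR). Tpi1 lies at chr6:124810586-124814296 on the minus strand, and 7.51% of its 50-base stretches are shared with other genes. Leaving out any library kept the log2 fold change between -0.69 and -0.55 and the unadjusted p between 0.00695 and 0.0164 (edgeR).

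Aldoa, the main aldolase gene, was at 729, 741 and 618 CPM in BALB/c and at 483, 502 and 646 CPM in SKG. SKG replicates 1 and 2 lay below all BALB/c libraries and SKG replicate 3 within their range. The log2 fold change was -0.36 with a standard error of 0.16 (unadjusted p = 0.0674, FDR = 0.952, edgeR). Aldoc received 146 reads in BALB/c replicate 3, 1 read in SKG replicate 1 and 0 reads in the other 4 libraries, so it appeared in substance in a single pool. The gene of the glucose 6-phosphate isomerase step, Gpi1, averaged 379 ± 40.9 CPM in BALB/c and 342 ± 57.9 CPM in SKG (SD, n = 3 libraries each). Gpi1 shares 25.3% of its 50-base stretches with 122 other genes.

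Hexokinase, which traps glucose in the cell, was represented almost wholly by Hk1. Hk1 was at 150, 119 and 164 CPM in BALB/c and at 183, 96.4 and 221 CPM in SKG, a wider range in SKG that enclosed that of BALB/c. Hk2, the isoform known as inducible in activated lymphocytes, was at 8.39, 0.243 and 7.37 CPM in BALB/c and at 2.26, 1.16 and 11.8 CPM in SKG. Levels per kilobase of transcript were used to compare the isoform genes, and on this scale Hk1 made up 96.2% to 99.9% of the sum with Hk2 in every library. The log2 fold changes of Hk1 and Hk2 were 0.21 and -0.07 with standard errors of 0.32 and 1.48, so a difference in Hk2 was not detectable with this spread.

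Phosphofructokinase commits glucose to glycolysis and is encoded by a platelet-type, a liver-type and a muscle-type gene. Pfkp, the platelet type, was at 837, 891 and 749 CPM in BALB/c and at 957, 822 and 867 CPM in SKG. Pfkl, the liver type, was at 248, 232 and 148 CPM in BALB/c and at 225, 180 and 124 CPM in SKG. The genotypes overlapped for both genes, with log2 fold changes of 0.10 and -0.25 and standard errors of 0.13 and 0.29. Pfkp shares 17.1% of its 50-base stretches with the neighboring gene Pitrm1.

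Pfkm, the muscle type at chr15:98092589-98132451, was the least even of these genes. It received 1712, 1227 and 595 reads in BALB/c replicates 1 to 3 and 275, 2 and 3 reads in SKG replicates 1 to 3, or 41.5, 33.1 and 13.2 CPM against 6.83, 0.051 and 0.083 CPM. All BALB/c libraries exceeded all SKG libraries, and SKG replicate 1 held nearly all SKG reads. The fitted log2 fold change was -3.65 with a standard error of 1.87 (unadjusted p = 0.0946, FDR = 0.953, edgeR). It was -8.71 without SKG replicate 1 and between -3.99 and -3.06 without any other library, and DESeq2 with shrinkage gave -1.52. Per kilobase, Pfkm was 5.10%, 3.98% and 2.03% of the phosphofructokinase sum in BALB/c and 0.807%, 0.00725% and 0.0119% in SKG, so even in BALB/c it was a small part. Pfkp made up 71.4% to 80.3% in BALB/c and 78.6% to 86.3% in SKG.

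**Figure D3:**
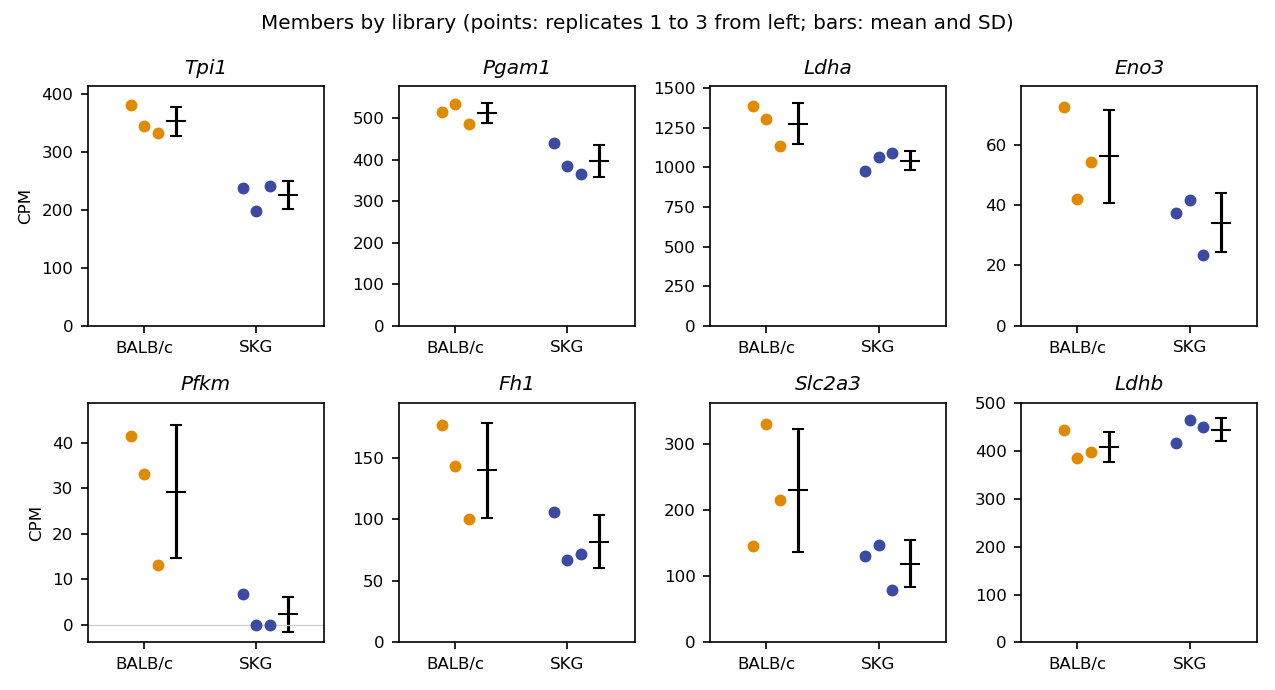
Level of 8 genes in each library, in CPM on linear axes that include 0, with points for replicates 1 to 3 and a bar for the mean and SD of each genotype. For Tpi1, Pgam1, Ldha, Eno3 and Pfkm all orange BALB/c points lie above all blue SKG points, whereas for Fh1 and Slc2a3 the highest SKG point lies above the lowest BALB/c point, and Ldhb lies slightly higher in SKG with overlap.

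Lactate dehydrogenase is a tetramer of subunits encoded by Ldha, which predominates in glycolytic tissues, and Ldhb, which predominates in oxidative tissues such as heart. Ldha, at chr7:46841475-46855627, was at 1387, 1306 and 1134 CPM in BALB/c and at 974, 1062 and 1091 CPM in SKG. The genotypes did not overlap, and the means were 1276 ± 129 and 1042 ± 60.7 CPM (SD, n = 3 libraries each). The log2 fold change was -0.29 with a standard error of 0.13 (unadjusted p = 0.0568, FDR = 0.944, edgeR). Ldhb, at chr6:142490249-142507957, was at 445, 385 and 398 CPM in BALB/c and at 418, 465 and 450 CPM in SKG. Here the order of the means was the opposite, with overlap, and the log2 fold change was 0.12 with a standard error of 0.13.

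The balance of the subunit genes separated the genotypes, as Ldha alone did. Among the other isoform families compared in this way, only the share of Pfkm was without overlap. The shares of the hexokinase, aldolase, enolase, glucose transporter, monocarboxylate transporter and malate dehydrogenase genes overlapped. Per kilobase of transcript, Ldha made up 69.7%, 71.5% and 67.8% of the sum of Ldha and Ldhb in BALB/c and 63.3%, 62.8% and 64.1% in SKG. The gap between the lowest BALB/c and the highest SKG library was wider than the range within SKG and slightly narrower than that within BALB/c, and the means were 69.7% ± 1.86 and 63.4% ± 0.698 (SD, n = 3 libraries each). This ratio was examined after the values of both genes were known and is given without a test. Ldha and Ldhb share 17.1% and 27.0% of their 50-base stretches with pseudogenes or other genes.

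**Figure D4:**
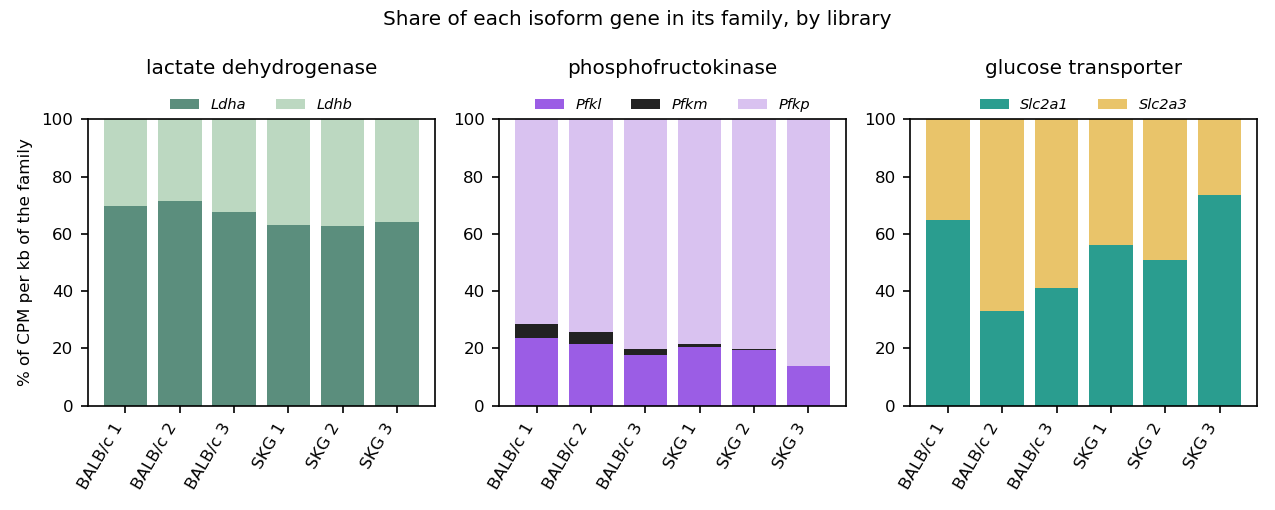
Share of each isoform gene in the sum of its family, in percent of CPM per kilobase, for lactate dehydrogenase, phosphofructokinase and the glucose transporters in each of the 6 libraries. The dark Ldha part is 67.8% to 71.5% in BALB/c and 62.8% to 64.1% in SKG, the black Pfkm part shrinks to under 1% in SKG, and the shares of the glucose transporters overlap between genotypes.

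The sequences upstream of the genes that separated the genotypes are shown for Ldha and Ldhb, since their balance separated the genotypes, and for Tpi1, Pgam1, Eno3 and Pfkm, since all their BALB/c libraries were higher. Each is the 250 bases before the RefSeq transcription start on GRCm38, 5′ to 3′ on the strand of the gene. They lie at chr7:46845554-46845803 (plus strand, the upstream of the 2 starts listed for Ldha), chr6:142507958-142508207 (minus), chr6:124814159-124814408 (minus), chr19:41911621-41911870 (plus), chr11:70656926-70657175 (plus) and chr15:98092339-98092588 (plus, the most upstream of the starts listed for Pfkm). Capitals mark CACGTG, an E-box bound by Myc and related factors, and ACGTG, the core of the element bound by hypoxia-inducible factor, on either strand, and a CACGTG always holds an ACGTG.
Ldha: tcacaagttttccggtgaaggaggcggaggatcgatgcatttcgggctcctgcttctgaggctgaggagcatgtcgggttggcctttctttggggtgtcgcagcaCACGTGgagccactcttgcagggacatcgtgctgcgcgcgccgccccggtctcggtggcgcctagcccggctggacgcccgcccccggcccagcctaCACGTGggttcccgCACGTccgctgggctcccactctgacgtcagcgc
Ldhb: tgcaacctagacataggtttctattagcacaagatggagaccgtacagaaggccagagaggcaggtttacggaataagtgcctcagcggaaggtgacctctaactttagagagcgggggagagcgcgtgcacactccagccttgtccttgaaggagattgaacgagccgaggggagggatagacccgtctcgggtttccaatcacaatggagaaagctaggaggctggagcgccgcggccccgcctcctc
Tpi1: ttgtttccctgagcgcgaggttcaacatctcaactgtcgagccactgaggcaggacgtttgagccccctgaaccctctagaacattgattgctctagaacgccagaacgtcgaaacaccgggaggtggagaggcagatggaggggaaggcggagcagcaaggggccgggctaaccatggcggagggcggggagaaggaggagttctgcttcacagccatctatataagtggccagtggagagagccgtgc
Pgam1: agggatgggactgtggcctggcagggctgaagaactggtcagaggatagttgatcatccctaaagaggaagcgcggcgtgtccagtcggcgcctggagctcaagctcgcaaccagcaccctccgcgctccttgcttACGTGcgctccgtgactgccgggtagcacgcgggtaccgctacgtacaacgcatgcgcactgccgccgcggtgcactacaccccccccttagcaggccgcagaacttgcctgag
Eno3: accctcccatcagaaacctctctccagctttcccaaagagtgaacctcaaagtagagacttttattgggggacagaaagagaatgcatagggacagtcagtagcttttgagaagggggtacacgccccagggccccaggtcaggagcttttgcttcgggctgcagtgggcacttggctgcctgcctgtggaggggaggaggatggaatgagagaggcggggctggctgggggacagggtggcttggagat
Pfkm: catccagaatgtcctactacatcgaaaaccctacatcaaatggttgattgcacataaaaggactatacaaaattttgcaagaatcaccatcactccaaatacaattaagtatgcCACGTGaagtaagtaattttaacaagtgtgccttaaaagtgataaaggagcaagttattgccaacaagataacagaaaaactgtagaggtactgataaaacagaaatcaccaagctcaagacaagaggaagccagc

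The Ldha window held 2 CACGTG and a further ACGTG on the opposite strand, the Pfkm window held 1 CACGTG, the Pgam1 window held 1 ACGTG, and the windows of Ldhb, Tpi1 and Eno3 held neither. The window of the downstream Ldha start, not shown, also held neither. Windows of the other Pfkm starts, not shown, held 0 CACGTG, and the one at chr15:98108221-98108470 held 1 ACGTG. RefSeq entries were matched for 35 of the 37 genes, all but Slc2a3 and Idh3a. A gene was counted for a motif if the window of any of its listed starts held it. Genes with several starts, such as Ogdh and Pfkm, thus had more chances. CACGTG occurred upstream of 4 of the 35 genes (11.4%), compared with 6.86% of 27025 genes with an entry and 10.4% of the 8404 of these that were tested. ACGTG occurred upstream of 13 (37.1%), compared with 18.5% and 25.98%. GGGCGG, the GC box bound by Sp1 and related factors, occurred upstream of 26 (74.3%), compared with 35.4% and 64.4%. These matches describe the letters in a fixed window and not binding.

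Among the transporters, Slc2a3, which encodes the high-affinity glucose transporter GLUT3, was at 146, 330 and 215 CPM in BALB/c and at 131, 148 and 79.7 CPM in SKG. BALB/c replicate 1 lay just below SKG replicate 2, and the other BALB/c libraries were higher than any SKG library. The log2 fold change was -0.95 with a standard error of 0.36 (unadjusted p = 0.0372, FDR = 0.871, edgeR). Without BALB/c replicate 2 it was -0.60 (unadjusted p = 0.137, edgeR). Slc2a3 lies at chr6:122727809-122801640 on the minus strand and shares 0% of its 50-base stretches with other genes.

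Slc2a1, which encodes GLUT1, was at 222, 135 and 124 CPM in BALB/c and at 137, 125 and 183 CPM in SKG, with full overlap and a log2 fold change of -0.11 with a standard error of 0.28. Per kilobase Slc2a1 made up 64.9%, 33.1% and 41.1% of the sum of both transporters in BALB/c and 56.1%, 50.8% and 73.6% in SKG. Slc2a1 was the larger of the pair in 1 of 3 BALB/c libraries and in 3 of 3 SKG libraries. The lactate transporter genes Slc16a1 and Slc16a3 encode MCT1 and MCT4. Slc16a1 averaged 76.4 ± 30.6 CPM in BALB/c and 47.4 ± 25.8 CPM in SKG (SD, n = 3 libraries each), with overlap. Slc16a3 received 1, 458 and 519 reads in BALB/c and 320, 2 and 640 reads in SKG, so 1 library of each genotype was almost without it, and its log2 fold change of 0.11 had a standard error of 2.08.

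Pyruvate dehydrogenase links glycolysis to the TCA cycle and is switched off by pyruvate dehydrogenase kinases. Pdha1, its catalytic alpha subunit gene, was at 133, 161 and 158 CPM in BALB/c and at 168, 186 and 119 CPM in SKG. Pdk1, which encodes a kinase, was at 11.1, 3.42 and 25.0 CPM in BALB/c and at 13.5, 14.9 and 31.2 CPM in SKG. The genotypes overlapped for both, with log2 fold changes of 0.06 and 0.59 and standard errors of 0.22 and 0.86. Pdhb, the beta subunit gene, averaged 197 ± 6.41 and 178 ± 34.0 CPM (SD, n = 3 libraries each), also with overlap. Pdhb shares 30.3% of its 50-base stretches with Gm6123. Reads of Pdha1 cannot be told from those of Map3k15 over 16.1% of its exon bases.

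In the arm of the TCA cycle with its associated dehydrogenases the directions were evenly split. Below 0 were 4 of 8 genes, with a median log2 fold change of -0.06. Fh1, the fumarase gene at chr1:175600374-175625635, was at 176, 143 and 99.9 CPM in BALB/c and at 106, 66.6 and 71.9 CPM in SKG. SKG replicate 1 exceeded BALB/c replicate 3 slightly, and all other pairs of libraries had the higher value in BALB/c. The log2 fold change was -0.78 with a standard error of 0.30 (unadjusted p = 0.0372, FDR = 0.871, edgeR), and 0% of the 50-base stretches of Fh1 are shared. Without BALB/c replicate 1 the log2 fold change was -0.57 (unadjusted p = 0.12, edgeR).

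Cs, the citrate synthase gene at the entry of the cycle, was at 365, 342 and 365 CPM in BALB/c and at 351, 407 and 454 CPM in SKG. SKG replicates 2 and 3 exceeded all BALB/c libraries and SKG replicate 1 did not, and the log2 fold change was 0.18 with a standard error of 0.14. Mdh2, the mitochondrial malate dehydrogenase gene, was at 819, 599 and 610 CPM in BALB/c and at 535, 469 and 715 CPM in SKG, again with overlap. The other genes of this arm, Idh2, Idh3a, Ogdh, Suclg1 and Mdh1, had log2 fold changes of 0.49, 0.06, 0.02, -0.45 and -0.14 with unadjusted p from 0.164 to 0.923 (edgeR). Mdh2 was 66.2% to 72.4% of the malate dehydrogenase sum per kilobase in all 6 libraries, with the cytosolic form Mdh1 as the rest.

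In the pentose phosphate pathway 0 of the 5 genes reached an unadjusted p under 0.05, and the log2 fold changes lay between -0.36 and 0.12. G6pdx, whose product catalyzes the entry step, was at 138, 168 and 120 CPM in BALB/c and at 126, 72.9 and 197 CPM in SKG. The SKG libraries enclosed the BALB/c range. Pgd, the gene of the second dehydrogenase of the oxidative branch, averaged 208 ± 37.1 CPM in BALB/c and 162 ± 35.0 CPM in SKG, and Pgls, the gene of the lactonase between them, 86.6 ± 11.2 and 93.9 ± 21.9 CPM (SD, n = 3 libraries each). Tkt and Taldo1, the transketolase and transaldolase genes of the non-oxidative branch, had log2 fold changes of -0.10 and 0.03 with standard errors of 0.19 and 0.23.

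Levels of different genes were compared per kilobase of the main transcript, averaged over the 6 libraries. Pkm led with 1072 CPM per kilobase, followed by Ldha with 656, Mdh2 with 429, Aldoa with 410, Taldo1 with 328, Ldhb with 327 and Pgam1 with 256. At the other end were Pdk1 with 3.19, Slc16a3 with 1.90, Hk2 with 0.944 and Aldoc with 0.195 CPM per kilobase. The 7 leading genes came from glycolysis, lactate dehydrogenase, the TCA cycle and the pentose phosphate pathway. The order is uncertain for genes with shared sequence, since the full transcript length was used and reads of low mapping quality were not counted. Gapdh at 122 and Pgk1 at 21.7 CPM per kilobase share 82.5% and 68.0% of their 50-base stretches. Pkm shares 34.4% and Mdh2 0%. Levels of genes with much shared sequence may be too low, to an extent that was not tested.

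The measured spread set what could be seen. The SD of log2 CPM between libraries of the same genotype had a median of 0.27 over the 36 genes and 0.64 over all genes tested. The carbon metabolism genes were also more abundant, since 27 of them lay at 100 CPM or more. In that class their median SD was 0.24 and that of all genes 0.31, and at 10 to 100 CPM it was 0.47 for 7 genes and 0.62 for all genes. The other 2 genes, Hk2 and Slc16a3, had SDs of 2.28 and 4.12. Of all genes at 100 CPM or more, 6.24% had every BALB/c library above every SKG library and 10.8% the reverse, compared with 3 and 0 of the 27 carbon metabolism genes, and 4.03% reached an unadjusted p under 0.05 with more RNA in BALB/c, compared with 4 of the 27.

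**Figure D5:**
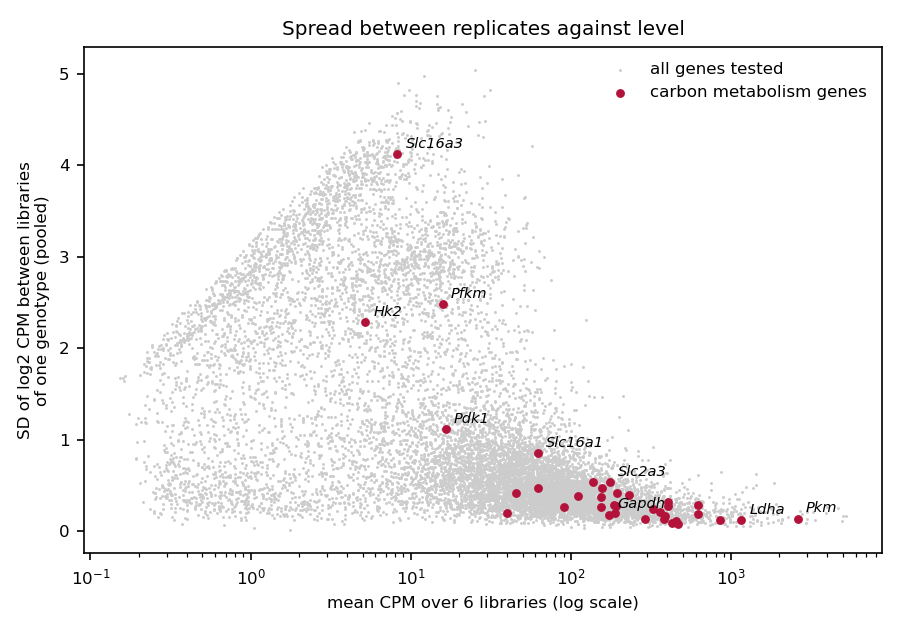
SD of log2 CPM between libraries of the same genotype against the mean level over the 6 libraries on a log axis, for all 12312 genes tested in gray and the 36 carbon metabolism genes in red. Most red points sit at the lower right, at high level and small spread, while Slc16a3, Pfkm and Hk2 have SDs of 2.28 to 4.12.

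Outside the 37 genes, 67 other genes of the same pathways were examined, of which 52 were tested. Their log2 fold change was below 0 in 35 of 52, with a median of -0.21, compared with 51% of all genes tested and their median of -0.02. An unadjusted p under 0.05 was found for 3 of the 52 genes, all with more RNA in BALB/c. Of all genes tested, 2.38% reached that p with more RNA in BALB/c. EdgeR called 0 of the 52 at the FDR, as it did of all genes tested. Sdhd, a membrane subunit gene of succinate dehydrogenase, was at 243, 181 and 164 CPM in BALB/c and at 113, 139 and 122 CPM in SKG (unadjusted p = 0.0167, FDR = 0.83, edgeR). Bsg, whose product basigin escorts the lactate transporters to the membrane, was at 299, 280 and 266 CPM in BALB/c and at 177, 234 and 182 CPM in SKG (unadjusted p = 0.0185, FDR = 0.83, edgeR). Rbks, the ribokinase gene, was at 23.5, 25.3 and 21.4 CPM in BALB/c and at 6.999, 12.2 and 6.86 CPM in SKG (unadjusted p = 0.0492, FDR = 0.912, edgeR). All 3 had every BALB/c library above every SKG library, as did Gpd2, the mitochondrial glycerol 3-phosphate dehydrogenase gene, which was named after its values were seen, and 0 of the 52 genes had the reverse order. These 4 of 52 genes are near the 7.12% of all genes tested that were separated with BALB/c higher.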

How the data were processed

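RNA of 6 libraries of stage 0 iNKT cells, 3 BALB/c and 3 SKG, was sequenced. The counts deposited by the authors are whole numbers of reads per gene without normalization, from HISAT2 2.1.0 alignments to GRCm38 counted over exons of Ensembl 85 genes on either strand with featureCounts (Subread 1.4.4) and a minimum mapping quality of 10. The authors' DESeq2 1.14.1 comparison, a table of fold changes and p-values, was not used.

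Counts were analysed in R 4.3.3. Genes kept by filterByExpr were scaled with TMM and tested with the quasi-likelihood F test of edgeR 4.0.16, without covariates, with Benjamini-Hochberg adjustment over 12312 genes. DESeq2 1.42.0 and limma 3.58.1 (voom) were alternatives, with other scalings, filters, thresholds, replicate blocks and each library left out. CPM are counts scaled to the TMM-adjusted library size. Folds are fitted values. Totals per library were 37176544 to 43115544 reads, and PCR copies cannot be told from molecules. Per-kilobase levels used the main transcript of GENCODE vM21 (GRCm38), a later annotation than that counted, and shared sequence was found as identical stretches of 50 bases between annotated transcripts. Upstream sequences are from RefSeq (GRCm38.p6), and motifs were sought on both strands.

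Every library's value is given for genes at an unadjusted p under 0.05 or without overlap, the 5 with the highest mean CPM, those with 0 reads in a library, and Hk1, Hk2, Pfkl, Pfkm, Pfkp, Pkm, Ldha, Ldhb, Slc2a1, Slc2a3, G6pdx, Cs, Pdha1 and Pdk1. The rest are given by mean or fold change. Of other pathway genes, those at an unadjusted p under 0.05 are named. The genes and lists were chosen with earlier results of these data known.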

Additional observations from a re-analysis of the deposited data

How the results depend on the processing

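EdgeR called 0 of the carbon metabolism genes under other scalings, both filters, both replicate blocks and the number of detected genes as covariate. The count was also 0 at an FDR of 0.05, without a fold-change threshold, with the fold tested in the model and with any library left out. Limma-voom called 0 as well, and DESeq2 called 1 (Tpi1) with and without shrinkage. At the main thresholds these edgeR and limma-voom fits also called 0 of all genes tested, except for 2 of 25935 without a filter on low counts. A count of 0 was therefore not particular to these genes. The count at an unadjusted p under 0.05 was 4, and 1 (without BALB/c replicate 2) to 4 with a library left out, being 2 without BALB/c replicate 1 and 2 without SKG replicate 2. Tpi1 kept its p under 0.05 whichever library was left out, but had 0.0609 with the library number as a replicate block. Pgam1 kept it only without SKG replicate 1, Fh1 only without BALB/c replicate 3 or SKG replicate 1, and Slc2a3 only without BALB/c replicate 1 or SKG replicate 2. The number of genes without overlap was 5, and 8 with upper-quartile scaling. It was 6 to 12 with a library left out, where fewer libraries make separation easier. For other scalings, replicate blocks and left-out libraries, the matching shares of all genes tested were not counted. The counts without overlap or at an unadjusted p under 0.05 in these settings are therefore only a description. The median log2 fold change of -0.13 was lowest at -0.27 without SKG replicate 3 and highest at -0.053 without SKG replicate 2.

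Libraries of the same number did not deviate together, with residual correlations of -0.145 to -0.00962 for the numbers in the titles and -0.0384 and 0.00289 for the library numbers. With the title number as a replicate block, 0 genes were called, 4 had an unadjusted p under 0.05 and the median was -0.15. With the library number as a block the values were 0, 2 and -0.24.

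Of the fold changes of single genes under these alternatives, 575 kept direction and side of the threshold, 2 (Tpi1, DESeq2) passed it and 35 changed sign, all of genes with a standard error larger than the fold change. With a library left out, the log2 fold changes that changed sign ranged from -0.27 to 0.21 for Slc2a1, -0.037 to 0.49 for Hk1, -1.63 to 0.41 for Hk2, -0.15 to 0.016 for Pkm, -0.99 to 0.69 for Slc16a3, -0.061 to 0.25 for Pdha1, -0.10 to 0.18 for Idh3a, -0.14 to 0.19 for Ogdh, -0.50 to 0.20 for G6pdx, -0.072 to 0.26 for Pgls, -0.19 to 0.045 for Tkt and -0.23 to 0.18 for Taldo1. Hk2 was 0.20 with limma-voom, 0.38 with the title number as a block and 1.33 with the library number as a block. Pfkp was -0.032 and Ogdh -0.24 with the library number as a block. Ogdh was -0.019 with upper-quartile scaling and -0.0062 with library size alone. Taldo1 was -0.0087 with limma-voom, -0.018 with upper-quartile scaling, -0.0026 with library size alone and -0.0020 with the title number as a block. The causes were not tested.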
